A study of Drosophila melanogaster with 6 samples.

Results

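The cell death, caspase, engulfment and autophagy genes examined here are 38 named genes out of 23932 features in the table of counts. They were listed by function, from the genes that oppose the inhibitors of apoptosis to caspases, damage sensors, engulfment receptors and autophagy genes. The list was drawn up because skl, rpr and grim were already known to be higher in these knockdown libraries, so the values of those 3 genes are given as a description with no test, and no count over the list supports them. The p-values of the other members come from a fit across all tested features in the same contrast. They describe members picked with earlier results of these data known, and nothing about the list as a whole is read from them.

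The libraries were made from T4/T5 neurons, the direction-selective cells of the fly visual system, of Drosophila melanogaster larvae raised at 25 °C to the climbing stage of the third instar. All 6 libraries came from animals carrying 1 copy of R23G12-Gal4, which drives expression in these cells, and 1 copy of UAS-CD8-GFP, by which the dissociated cells were sorted. In the control group the hairpin under the driver's control targeted cherry, a fluorescent protein (UAS-cherry-IR, over the driver), and in the knockdown group the homeobox gene Drgx (UAS-DRGX-IR, over the GFP transgene), with 3 libraries each. The hairpins thus lie opposite different transgenes. The groups also differ in this background, which cannot be told apart from the knockdown. The labels do not say how many animals were pooled or whether the libraries came from separate cultures or days. The p-values set differences against the spread between these libraries, which may in part be technical.

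The smallest library held 29587960 counts and the largest 44054609. Levels are TMM-normalised CPM, a gene's counts relative to the scaled total of its library, with the SD over 3 libraries. Drgx was at 2110 to 2160 CPM in control and lower in every knockdown library, at 663.4 to 729 CPM. Markers of neurons and of the T4/T5 lineage were present in every library, with elav, a pan-neuronal RNA-binding protein gene, at 1026 CPM in control and the lineage factor acj6 at 592.6 CPM. The synaptic genes nSyb, brp and Syt1 fell and fne, an RNA-binding protein gene, rose (edgeR adjusted p of at most 0.00811). The 7 T4/T5 markers summed to 3276 to 3415 CPM in control and 2179 to 2297 CPM in knockdown. Of these, 6 had log2 fold changes below 0 and 3 passed the edgeR test, Sox102F at −2.05, dac at −0.88 and bi at −0.44, while acj6 was at 0.22 and did not pass. Their part in the results below was not tested. Of the markers of other cells, 8 glial genes summed to 596.6 to 668.7 CPM in control and 790.8 to 845.7 CPM in knockdown, although repo, the defining glial factor, differed by less than its spread. Most of that sum was nrv2 alone, at 460.4 CPM in control and 600.1 CPM in knockdown. Of the 8, 7 had log2 fold changes above 0 and 1, Gat, below. Hemocyte markers summed to at most 5.43 CPM, with 4 of 7 at 0 in every library, and photoreceptor markers to at most 3.21 CPM. Of the 2 hemocyte markers tested, Ppn rose from 0.143 ± 0.115 to 3.33 ± 0.554 CPM (SD, n = 3 each, edgeR adjusted p 0.00425). Progenitor markers summed to 185.3 to 206.9 CPM in control and 221.4 to 236.7 CPM in knockdown. Of these 6 genes, 3 had log2 fold changes above 0 and 3 below, and none passed the edgeR test. The higher sum came mainly from stg, at 94.85 CPM in control and 118.45 CPM in knockdown, and ase, at 47.72 and 62.56 CPM. Knockdown replicate 2 stood apart, with 325 tested features out of 9932 at 0 counts where the other libraries had 118 to 171, so results were also computed without it.

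In flies, cells that are to die switch on a small set of neighbouring genes, reaper (rpr), grim, hid and sickle (skl), together called the RHG genes. Their products bind the inhibitor of apoptosis Diap1 and release the caspases it holds in check. The initiator caspase Dronc, assembled on the Apaf-1-like adaptor Dark, then cleaves the effector caspases Drice and Dcp-1, whose own messages need not change for them to act. In the developing optic lobe this pathway removes surplus neurons, glia clear the remains through receptors such as Draper (drpr), and autophagy, the digestion of cell contents in lysosomes, is a separate route that can accompany death or survival.

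skl, rpr and grim were high in every library with the Drgx hairpin, and hid was low. skl (FBgn0036786, 3L, 18438561 to 18439942 in BDGP6.54) was at 20.72, 21.59 and 22.84 CPM in control, and in knockdown at 273.2, 311.8 and 312.4 CPM. The groups lay far apart, and the fitted difference was 13.8-fold (95% interval 11.9 to 15.9). The intervals of skl, rpr and grim, here, below and in the figures, describe the uncertainty of the fitted difference. They are no test, because the 3 genes were already known to be higher. rpr (FBgn0011706, 3L, 18397535 to 18398435), the founding member of the family, was at 7.12, 8.37 and 12.89 CPM in control and 67.3, 89.28 and 71.98 CPM in knockdown. Control replicate 3 was its highest control and still below every knockdown library, and the difference was 8.05-fold (5.69 to 11.4).

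grim (FBgn0015946, 3L, 18302719 to 18304417) was the lowest of the family in control per kb of all its annotated exon, at 2.47 CPM per kb. Its level was 3.62, 4.18 and 4.76 CPM in control and 25.62, 21.6 and 23.96 CPM in knockdown. Its groups did not overlap, and the difference was 5.66-fold (4.23 to 7.56). Of its 1699 bp of exon, 1290 bp are shared with a noncoding gene on each strand. Both noncoding genes held no count in any library. The sources used here do not say if counting used strand or how reads in shared exon were assigned. Strand could not set grim apart from the noncoding gene on its own strand. If reads in shared exon were left out, the level of grim per kb is too low. The same then holds for its place among the members, its share of the RHG genes and their sum below. In bulk RNA, more cells expressing these genes and more RNA per cell cannot be told apart.

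hid (FBgn0003997, 3L, 18167745 to 18185641), a regulator of Diap1 that growth signals restrain in the fly eye, fell. It was at 34.17, 39.09 and 40.17 CPM in control and 14.11, 18.73 and 22.95 CPM in knockdown. All 3 knockdown libraries were below all 3 controls, with a log2 fold change of −1.02 (SE 0.182, edgeR adjusted p 0.00766). Leaving out each library in turn gave −1.20 to −0.86, with adjusted p from 0.00643 to 0.0446. In the same libraries the 8 glial markers summed to at most 668.7 CPM in control and at least 790.8 CPM in knockdown, most of it from nrv2. The glial factor repo was at 9.74 and 9.82 CPM. The part of these markers in the differences of the RHG genes was not tested.

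**Figure D1:**
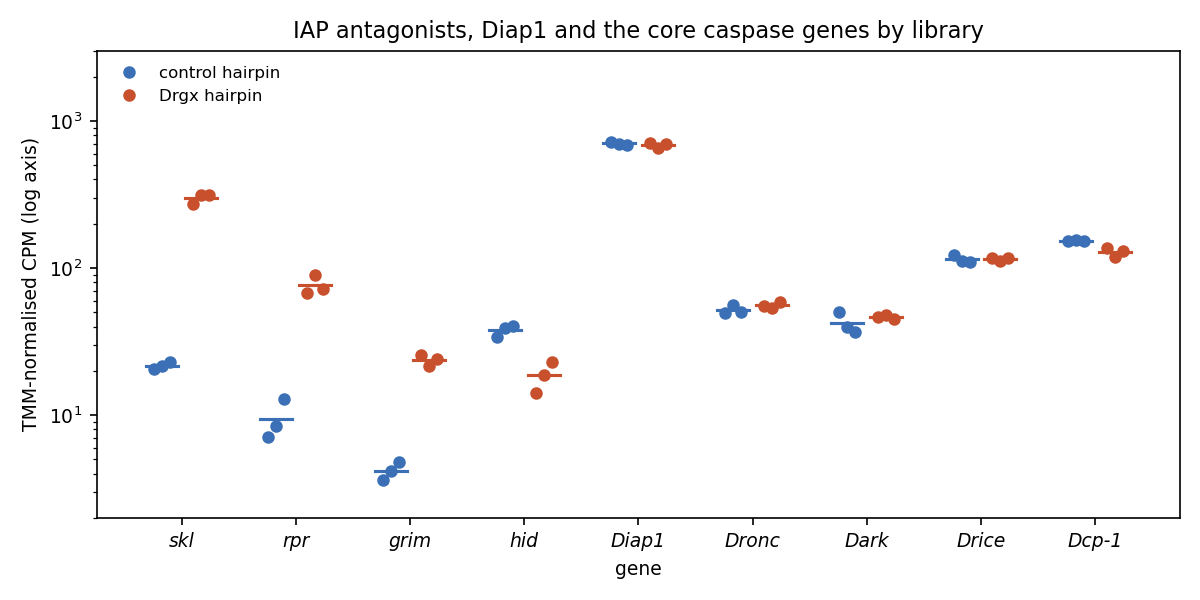
TMM-normalised CPM on a log axis of the 4 RHG genes, Diap1, Dronc, Dark, Drice and Dcp-1, where each point is a library and each line the mean of 3 libraries, for the control hairpin (blue) and the Drgx hairpin (orange). skl, rpr and grim stand apart between the groups upward and hid downward, while the groups of Diap1, Dronc, Dark and Drice overlap, and Dcp-1 was lower in all 3 knockdown libraries without passing the test.

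Levels of different genes were compared per kb of annotated exon. In control the 4 RHG genes had a summed level of 33.53, 37.11 and 43.63 CPM per kb, against 230.4, 220.9 and 219.4 CPM per kb for Diap1, the inhibitor their products bind. In knockdown the sum was 291, 342 and 325.8 CPM per kb and Diap1 was at 226.4, 208 and 221.7 CPM per kb. The ratio of the sum to Diap1 therefore went from 0.171 ± 0.0268 to 1.47 ± 0.180 (SD, n = 3 each), with no overlap between the groups. These are ratios of message levels and not of proteins. Nearly all of the knockdown sum is skl, rpr and grim, which were already known to be higher. The separation of the ratio is therefore a description and no test.

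The make-up of the sum also differed between the groups, described here with no test for the same reason. In control it was spread over skl at 41.57% ± 3.45, rpr at 27.12% ± 4.96, hid at 24.83% ± 1.72 and grim at 6.47% ± 0.148 (SD, n = 3). The share of grim carries the limit given above for its shared exon. In knockdown skl made up 67.76% ± 1.73 and hid 1.44% ± 0.282, while rpr, at 26.39% ± 2.31, held a share that overlapped with that in control. skl alone reached 216.4 ± 16.2 CPM per kb, which overlapped with Diap1 at 218.7 ± 9.57 CPM per kb in the same libraries.

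**Figure D2:**
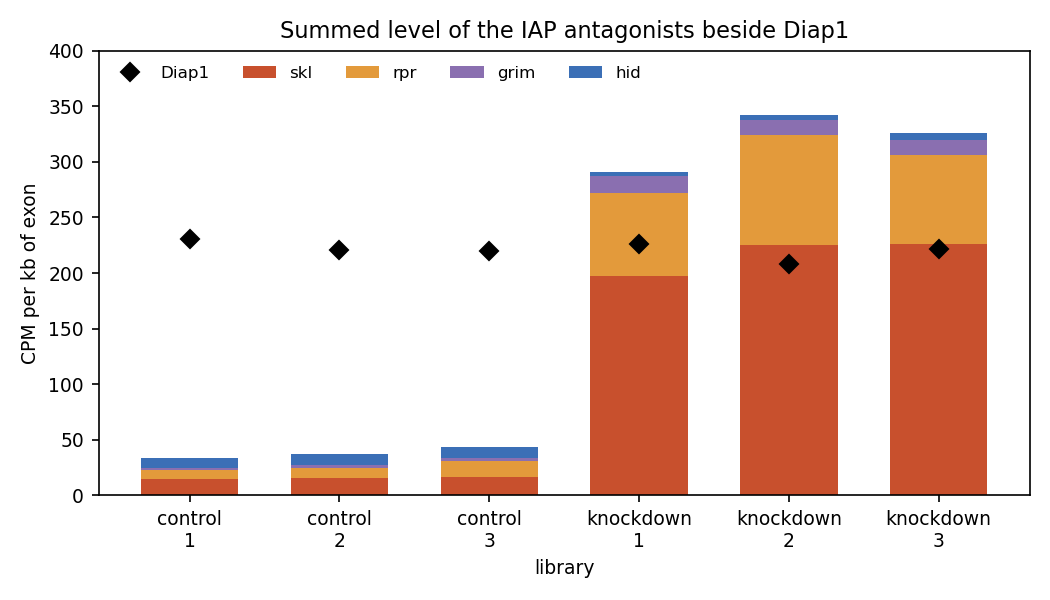
Stacked levels of skl, rpr, grim and hid in CPM per kb of exon for each library, with Diap1 as a diamond. The stack lies below Diap1 in the 3 control libraries, at 33.53 to 43.63, and above it in the 3 knockdown libraries, at 291 to 342.

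The RHG genes lie on the same strand of 3L, in the order hid, grim, rpr and skl towards higher coordinates. The gaps between neighbours are 117, 93.1 and 40.1 kb. The fitted log2 fold changes followed that order, at −1.02, 2.50, 3.01 and 3.78, which is a description of 4 points and no test of position. Of 14 other annotated features between hid and skl, 4 had any count and none passed the filter on low counts. Among them was CG13700, next to grim, with 0, 0 and 1 counts in control and 4, 33 and 13 counts in knockdown.

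In the interval extended by 100 kb on each side there were 53 other features, of which 29 had any count and 17 were tested. Their log2 fold changes had a median of −0.07 and ran from −0.87 to 1.63, and 11 were lower and 6 higher. The lowest, AstC-R2, an allatostatin C receptor gene on the far side of skl, was at 17.82, 17.87 and 20.58 CPM in control and 10.22, 9.95 and 10.59 CPM in knockdown, with no overlap. Its edgeR adjusted p was 0.00909, and it was the only 1 of the 17 called, beside 6.21% of all tested features. The highest value, that of CG4306, rested on 0 to 28 counts per library. The groups of CG4306 did not overlap either, where 23.3% of all tested features did not.

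**Figure D3:**
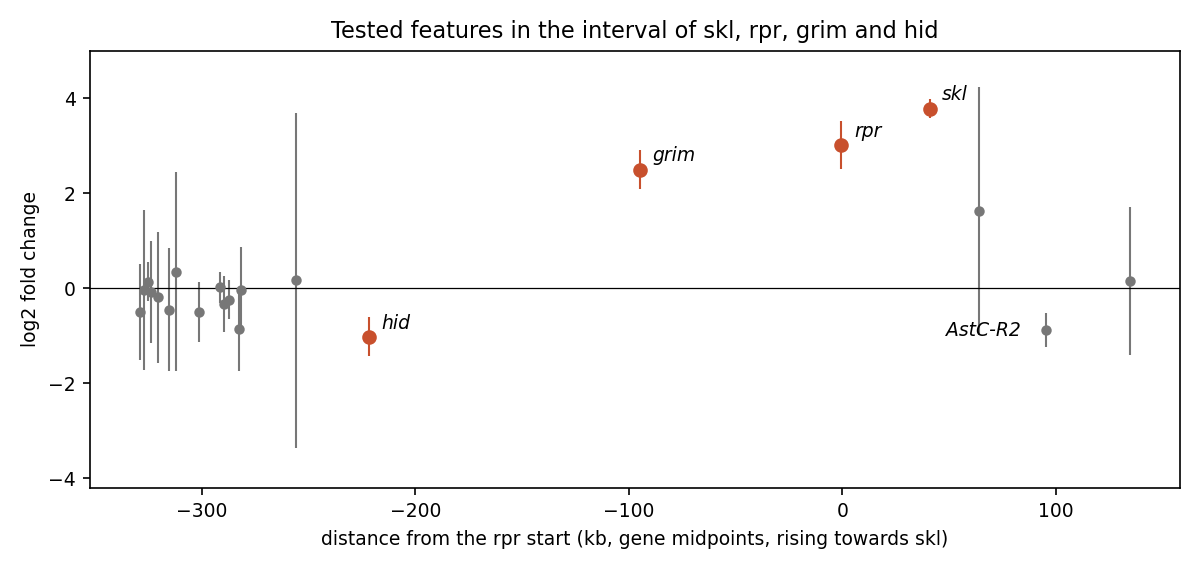
Log2 fold change with its 95% interval for the 21 tested features of the interval, by distance of the gene midpoint from the start of rpr in kb, with the RHG genes in orange and the others in grey. skl, rpr and grim are the points at 3.78, 3.01 and 2.50, hid lies at −1.02, and no feature between hid and skl other than grim and rpr was tested.

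Over the whole list, 34 of 38 members passed the filter on low counts and entered the fit. With skl, rpr and grim set aside, 31 were tested, and 3 of them had an edgeR adjusted p under 0.05, all lower in knockdown: hid, scyl and chrb. No other member was called higher, by edgeR, while 6 of the 31 had an unadjusted p under 0.05, as did 16.4% of all tested features. DESeq2 called 6 of the 31 (hid, scyl, chrb, Dcp-1, egr and Atg7) and 9.59% of all features. Of all 9932 tested features edgeR called 6.21%, 2.1% higher and 4.11% lower. The median log2 fold change of all features was 2.65e-05, against 0.03 for the 31 members, of which 18 were above 0 and 13 below. The knockdown and control values did not overlap for 3 members upward and 4 downward, where 10.9% and 12.4% of all tested features did so.

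The precision of these values differed among members. For 19 of the 31, the 95% interval of the fold change left out a 1.5-fold change in either direction, and for 25 a 2-fold change. The members whose interval reached a 2-fold rise were Buffy, Debcl, wgn and Atg7. Among the 25 members above 10 CPM in both groups, the coefficient of variation over 3 libraries had a median of 7.04% in control and 7.92% in knockdown, and was largest for Atg7 in control (27.1%) and lok in knockdown (33.9%).

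**Figure D4:**
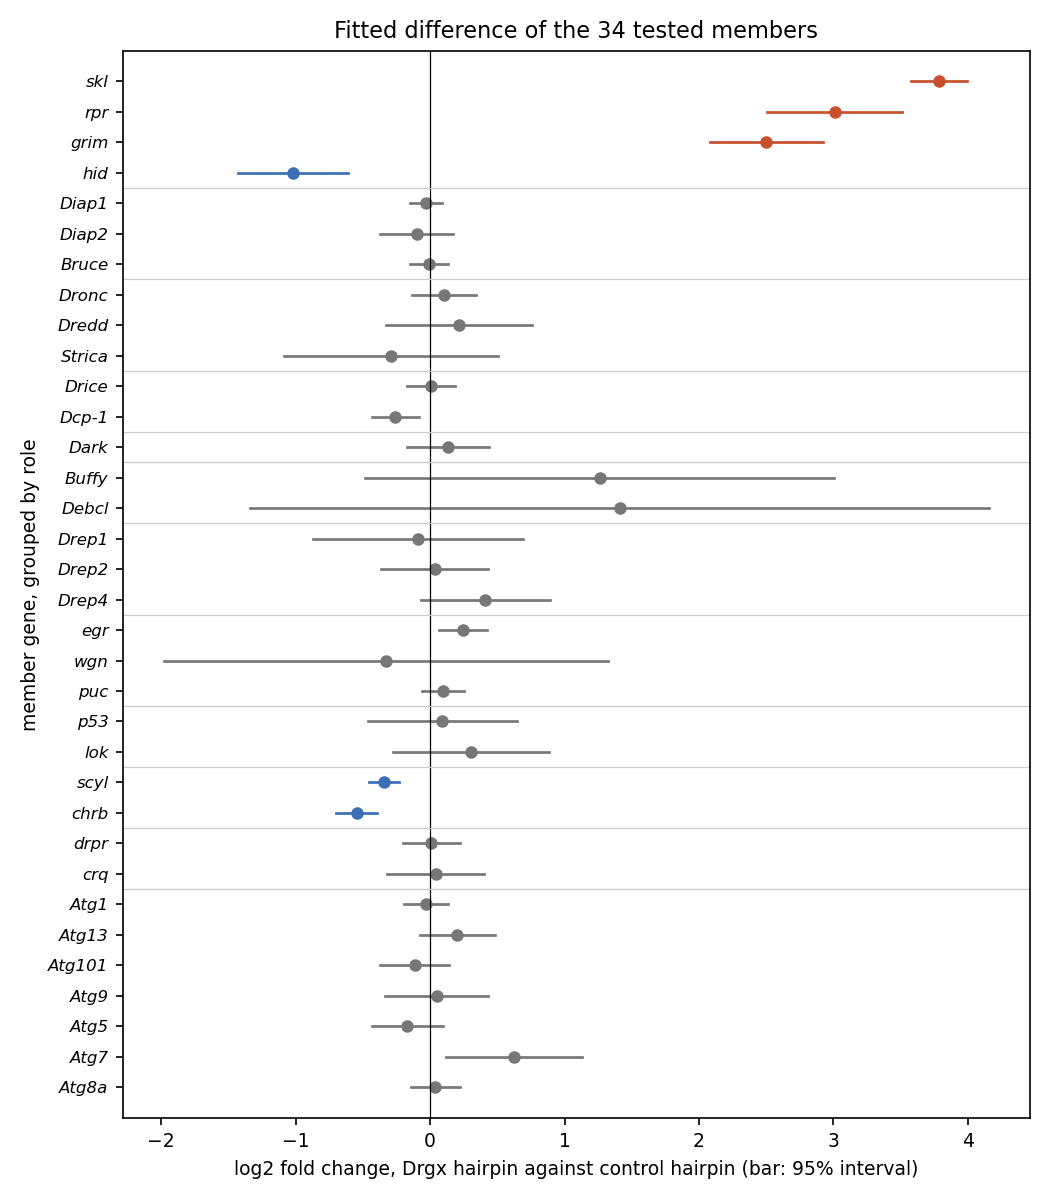
Fitted log2 fold change, Drgx hairpin against control hairpin, with its 95% interval for the 34 tested members, grouped by role and separated by grey lines. skl, rpr and grim are in orange, the members with an edgeR adjusted p under 0.05 and lower in knockdown (hid, scyl and chrb) in blue, and the rest in grey; Buffy, Debcl and wgn have the widest intervals.

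The inhibitors of apoptosis did not pass the test. Diap1 (FBgn0260635, 3L, 16038410 to 16051034), a ubiquitin ligase that holds Dronc and Drice in check, was at 724, 694.2 and 689.7 CPM in control and 711.7, 653.8 and 696.8 CPM in knockdown. The groups overlapped, and the fold change was 0.978 (95% interval 0.899 to 1.06, edgeR adjusted p 0.866). Bruce, a giant ubiquitin-conjugating protein with an inhibitor domain, had a fold change of 0.994 (0.900 to 1.10), and Diap2, which also serves innate immune signalling, one of 0.933 (0.772 to 1.13). Diap1 shares 347 bp of exon with an antisense gene.

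The caspases followed. Dronc, the initiator that Dark activates, was at 49.31, 55.95 and 50.01 CPM in control and 54.98, 53.14 and 59.09 CPM in knockdown, overlapping groups with a fold change of 1.08 (0.913 to 1.27, edgeR adjusted p 0.729). Dark was at 50.24, 39.39 and 36.92 CPM in control and 46.15, 47.52 and 45 CPM in knockdown, a fold change of 1.10 (0.888 to 1.35, edgeR adjusted p 0.739). Of the 4883 bp of exon of Dark, 2779 bp lie opposite an antisense gene. Drice, the main effector caspase, was at 122.9, 111.4 and 110.6 CPM in control and 116, 112.2 and 117.6 CPM in knockdown, with a log2 fold change of 0.0047 (fold 0.886 to 1.14, edgeR adjusted p 0.987).

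Dcp-1, the second effector, was the caspase gene with the smallest p. Its control libraries were at 152, 156 and 151.4 CPM and its knockdown libraries at 136, 118.2 and 130.1 CPM. All 3 knockdown values were below the controls, at a fold change of 0.836 (0.740 to 0.945), but the edgeR adjusted p was 0.104. DESeq2 put it at 0.0273, and 239 bp of its exons lie opposite pita. Dredd, an initiator that also acts in immune signalling, had a fold change of 1.16 (0.798 to 1.69), and Strica, an initiator-type caspase with no recruitment domain, one of 0.815 (0.470 to 1.42) at 3.95 CPM in control.

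Damm and Decay, caspases of the effector type, were below the filter. Damm had 0, 1 and 0 counts in control and 8, 1 and 0 in knockdown, and Decay had 12 counts in knockdown replicate 1 and 0 in the other 5 libraries. At these totals a count of 0 allows up to 3 counts, or 0.0681 to 0.101 CPM of a library's total, a limit that covers counting error only.

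Genes of the mitochondrial and nuclear steps were at low or intermediate levels. Buffy and Debcl, the fly's Bcl-2 family, had group means of 0.450 to 1.36 CPM. Their fitted fold changes of 2.40 (0.714 to 8.03) and 2.66 (0.396 to 17.8) have intervals that include 1, and Debcl had 0, 58 and 6 counts in control and 65, 43 and 23 counts in knockdown. Drep4, the homologue of the caspase-activated DNase, was at 6.62, 8.03 and 8.19 CPM in control and 11.45, 8.35 and 10.56 CPM in knockdown. The groups did not overlap, by a small margin, and the edgeR adjusted p was 0.403; 1263 bp of its exons are shared with genes on the other strand. Drep1, its inhibitor, and Drep2, a family member found at synapses, had fold changes of 0.940 (0.546 to 1.62) and 1.02 (0.778 to 1.35).

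The TNF ligand egr (eiger), which can trigger death through JNK signalling, was at 119.1, 128.7 and 133.5 CPM in control and 141.8, 154.2 and 156.1 CPM in knockdown. All 3 knockdown libraries were above the controls, at a fold change of 1.19 (1.05 to 1.34), with an edgeR adjusted p of 0.131 and a DESeq2 adjusted p of 0.033. Of its receptors, grnd had 1 count in all 6 libraries together and wgn ran from 0.609 to 3.59 CPM with overlapping groups. puc, a JNK phosphatase that is itself a transcriptional target of the pathway, was at 173, 169 and 169.2 CPM in control and 185, 188.3 and 172.9 CPM in knockdown, a fold change of 1.07 (0.961 to 1.19, edgeR adjusted p 0.585).

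The damage genes p53, a transcription factor that can switch on rpr and hid after irradiation in flies, and lok, the Chk2 kinase upstream of it, had fold changes of 1.07 (0.724 to 1.57) and 1.24 (0.826 to 1.85). p53 was at 5.06 to 6.80 CPM in control and 5.72 to 7.46 CPM in knockdown. lok was at 10.89, 16.17 and 14.8 CPM in control, and knockdown replicate 1, at 23.58 CPM, was above the others at 12.06 and 16.1 CPM. Of p53's exons, 812 bp lie opposite an antisense gene.

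scyl and chrb fell together. They encode the fly relatives of REDD1, which restrain the growth kinase TOR under low oxygen or stress. scyl (FBgn0041094, 3L, 11252307 to 11256172) was at 953.7, 997.6 and 1003 CPM in control and 748.2, 791.2 and 786.8 CPM in knockdown. Every knockdown library was below every control, at a fold change of 0.787 (0.729 to 0.850), a log2 fold change of −0.35 (SE 0.0495, edgeR adjusted p 0.00189).

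chrb (FBgn0036165, 3L, 11487550 to 11499055) was at 759.7, 805.7 and 795.7 CPM in control and 491.8, 539.9 and 585.5 CPM in knockdown. Its groups were also apart, at a fold change of 0.685 (0.616 to 0.762), a log2 fold change of −0.55 (SE 0.0687, edgeR adjusted p 8.17e-04). When 1 library was left out in turn, scyl ran from −0.37 to −0.32 and chrb from −0.61 to −0.48, with adjusted p of at most 0.0183 and 0.00883. Both genes lie on 3L, as do the RHG genes and also Diap1, which did not pass, and a part of position was not tested. Neither scyl nor chrb shares exon sequence with another annotated gene.

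The engulfment receptors did not pass the test. drpr, the Draper receptor by which glia take up cell remains, was at 130.2, 116 and 133.8 CPM in control and 118.7, 140.8 and 123.1 CPM in knockdown, a fold change of 1.01 (0.869 to 1.17, edgeR adjusted p 0.98). crq, a scavenger receptor of the CD36 family best known from hemocytes, had a fold change of 1.03 (0.802 to 1.32). crq was at 30.63 to 36.51 CPM in control, in libraries where 4 of 7 hemocyte markers were at 0 and Ppn rose as given above, and it shares 448 bp of exon with ex on the other strand. Of the 8 glial markers, 7 had log2 fold changes above 0, among them repo at 0.01. For 5 of the 8 all knockdown values were above the controls, beside 10.9% of all tested features. Only Gs2 and nrv2 passed the edgeR test. The part of the glial markers in the values of drpr was not tested.

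Of 8 autophagy genes, 7 were tested and none passed. Atg8a, the ubiquitin-like protein that coats autophagosomes, had the highest level of all members, 340.4 ± 31.3 CPM per kb in control, and a fold change of 1.03 (0.905 to 1.17). Its relative Atg8b had 0 counts in all 6 libraries. The kinase Atg1 and its partners Atg13 and Atg101 had fold changes of 0.978, 1.15 and 0.924, Atg9, a membrane protein of the forming vesicle, one of 1.03, and Atg5, part of the conjugation machinery, one of 0.889. Their intervals all included 1.

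Atg7, the activating enzyme for Atg8 and Atg12, was the autophagy gene that differed most. It was at 27.71, 44.79 and 47.86 CPM in control and 48.8, 78.68 and 58.05 CPM in knockdown. All knockdown libraries were above all controls, but control replicate 3 and knockdown replicate 1 were close. The fold change was 1.54 (1.08 to 2.19), with an edgeR adjusted p of 0.185, a DESeq2 adjusted p of 0.0428 and 0.138 to 0.44 when 1 library was left out.

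Ranked by level per kb of exon, the members highest in control were Atg8a, scyl, Diap1 and chrb, at 340.4 ± 31.3, 315.3 ± 8.68, 223.6 ± 5.94 and 132.1 ± 4.06 CPM per kb (SD, n = 3). Atg8a and scyl did not differ beyond their spread, while Diap1 and chrb were apart from their neighbours in the order. Dcp-1, at 87.57 ± 1.44, came next, and Drice and egr, at 59.64 ± 3.57 and 58.68 ± 3.37, were within their spread. skl, rpr, hid and grim took places 17, 21, 22 and 30 of 38 in control and 4, 6, 28 and 21 in knockdown. The places of grim carry the limit given above for its shared exon. In knockdown, skl and Diap1 were within their spread of each other.

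**Figure D5:**
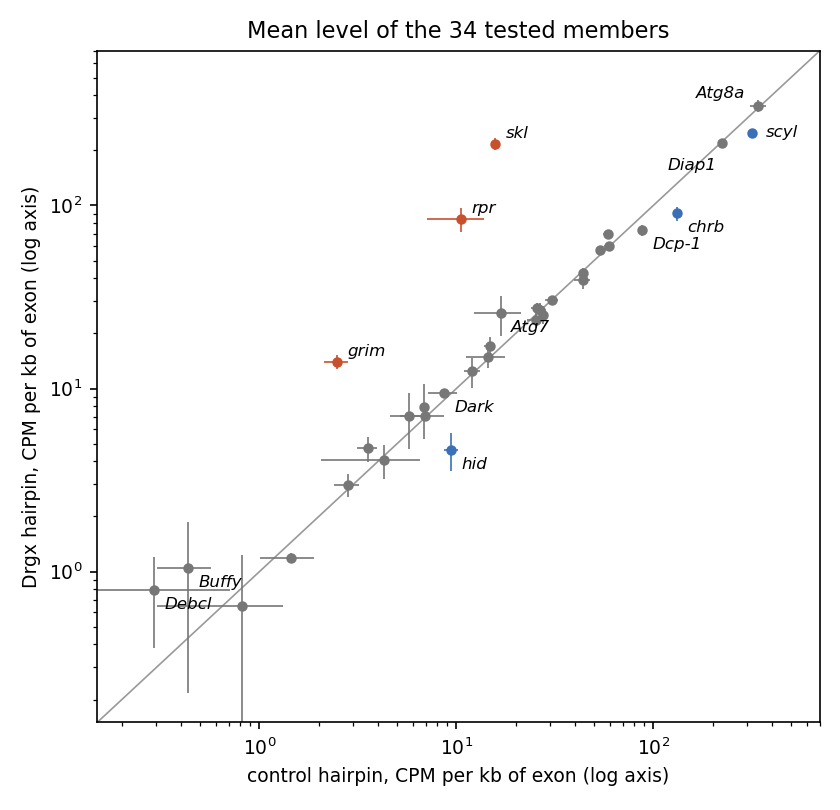
Mean level of the 34 tested members in CPM per kb of exon, control hairpin against Drgx hairpin on log axes, with bars for the SD over 3 libraries (bars that reach beyond the axes are clipped) and a line of equal levels. skl, rpr and grim (orange) lie above the line, hid, scyl and chrb (blue) below it, and most others (grey) on or near it.

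Further genes of the same pathways were taken from 8 lists written from general knowledge. Of 104 such genes, 98 were tested, and by edgeR 1 rose and 5 fell, 6 in all, beside the 6.21% of all features called. Their median log2 fold change was 0.02. No gene passed among 11 of mitochondria and DNA fragmentation, 10 of engulfment, 21 of autophagy and lysosomes or 12 of protein folding and oxidative stress, by edgeR, where 0, 0, 2 and 2 had an unadjusted p under 0.05, beside 16.4% of all features.

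Of 14 JNK pathway genes only Traf4, an adaptor of TNF receptors, passed, beside 6.21% of all tested features called by edgeR. It fell from 259.7 ± 4.49 to 206.5 ± 11.7 CPM (edgeR adjusted p 0.0164). Log2 fold changes were below 0 for 11 of the 14, beside 4965 of all 9932 tested features. An unadjusted edgeR p under 0.05 was found for 4 of the 14, beside 16.4% of all features. It was found for 3 of the 13 damage genes and 2 of the 6 genes of the partner list, given next. Of 13 damage genes only rad50, a DNA double-strand break repair gene, passed, and it rose from 23.16 ± 6.08 to 42.96 ± 4.96 CPM (adjusted p 0.0226 by edgeR). Of the 6 tested genes on the list for partners of the inhibitors of apoptosis only sick passed. It is a gene distinct from skl that is not such a partner and was listed in error, and it fell from 230.6 ± 12.1 to 186.8 ± 12.2 CPM (edgeR adjusted p 0.0456). These 3 calls rest on all 6 libraries: without 1 library, adjusted p reached 0.0795, 0.096 and 0.194, and they were called in 2, 2 and 1 of 6 such fits. With all 6 libraries sick also lost its call when scaled by DESeq2's size factors (adjusted p 0.0552) or by library size alone (0.0817), both in edgeR.

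Of 11 tested transcription factors known to act on RHG genes in flies, 3 fell and none rose by edgeR, with 4 at an unadjusted p under 0.05. Of all tested features 4.11% fell, 2.1% rose and 16.4% had an unadjusted p under 0.05. Eip93F, the ecdysone-induced factor E93, fell from 830.4 ± 23.8 to 330.9 ± 39.7 CPM (SD, n = 3), a log2 fold change of −1.33 (SE 0.0848, edgeR adjusted p 7.11e-06). br, an early ecdysone response gene, fell from 3376 ± 219 to 2492 ± 117 CPM (edgeR adjusted p 8.21e-04). Both passed in every fit that left out 1 library, at adjusted p of at most 1.57e-04 and 0.00774. Eip74EF, another early response gene, fell from 39.67 ± 1.60 to 20.23 ± 7.30 CPM (edgeR adjusted p 0.0292), and passed in 1 of the 6 fits without 1 library, with adjusted p up to 0.11.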

How the data were processed

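RNA of sorted T4/T5 neurons was read in 6 libraries made with SMART-Seq v4, a full-length amplification kit without molecular tags. The authors deposited raw counts, 1 column per library. The submitters' processing notes name STAR, DESeq2 and BDGP6. The counting program, annotation release and strandedness are not given in the sources used here. All columns were used.

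Identifiers were matched to the Ensembl 115 annotation (BDGP6.54): 23851 of 23932 features and 38 of 38 members. Features were filtered with filterByExpr (minimum 10 counts), which left 9932, scaled with TMM and tested with edgeR 4.0.16 in R 4.3.3 (glmQLFit, glmQLFTest, group as the only term), with Benjamini-Hochberg adjustment over all tested features and a threshold of 0.05. SEs are the absolute log2 fold change over the square root of F, and 95% intervals use the fit's t quantiles. DESeq2 1.42.0 and limma 3.58.1 (voom) were alternatives. Exon length is the union of annotated exons.

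The script was tested on simulated data for this comparison, in which 200 genes were raised or lowered 4-fold. Of these, 181 passed the filter among 9554 features, and it found 151 of the 181 (83.43%), beside 7 false calls. Smaller changes, such as those of most members, were not simulated. The members, lists and tests were chosen with earlier results of these data known. All members are accounted for; the listed pathway genes named are those with an adjusted p under 0.05, while CG13700, AstC-R2 and CG4306 were chosen after their values were seen. Of 146 list entries 145 matched an annotated gene. No reference sequences were used here.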

Additional observations from a re-analysis of the deposited data

How the results depend on the processing

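hid, scyl and chrb kept an adjusted p under 0.05 and their direction under all 13 alternatives. The log2 fold changes of skl, rpr and grim, given without a test, ran from 3.75 to 3.84, 2.85 to 3.29 and 2.41 to 2.60 when 1 library was left out, including knockdown replicate 2. DESeq2 moved the count outside skl, rpr and grim from 3 to 6 by adding Dcp-1 (log2 fold change −0.25), egr (0.25) and Atg7 (0.63), the count of all features from 617 to 952, and that of the other pathway genes from 6 to 10. With the replicate number as a block, Atg7 was added at adjusted p 0.0473 (log2 fold change 0.64), giving 7 members and 4 outside skl, rpr and grim, with 556 features in all and 7 other pathway genes; no other member's call changed. Deviations of same-numbered libraries from their group means correlated at 0.0246, −0.017 and −0.0591, and those of differently numbered libraries at −0.0477 to 0.0677. No pairing by number was seen. A weak effect of a shared culture or day, which the labels do not give, could go unseen in these values. Leaving out 1 library gave 399 to 556 features and 2 to 5 other pathway genes, against 617 and 6, and 6 members and 3 outside skl, rpr and grim each time. The lowest feature count, 399, was without control replicate 2. The other pathway genes numbered 3 without control replicate 1 or knockdown replicates 1 or 3, and 2 without control replicates 2 or 3, where fewer libraries were fitted. Scaling by DESeq2's size factors or by library size alone, no filter, at least 10 counts in every library (which dropped Debcl) and limma-voom changed no member's call. Either of those scalings lost sick, leaving 5 other pathway genes, while the stricter filter gave 8 and limma-voom 7. Buffy, Debcl and wgn had low counts and intervals that reached a 2-fold change, and Damm, Decay and grnd had at most 3 counts, the limit that a count of 0 allows, in at least 5 of the 6 libraries.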
